A study of Bos taurus with 15 samples.

Results

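The genes described here build, move or switch on motile cilia, the beating hairs on part of the epithelial cells that line the uterus and its glands. They were chosen by name from the 32671 gene entries of the deposited table: every entry whose symbol is DNAH, DNAI, TEKT, RSPH, CFAP or IFT followed by a number, and FOXJ1, SNTN, ARMC3, TPPP3 and FAM183A. The rule found 61 genes, which were 12 DNAH, 2 DNAI, 5 TEKT, 7 RSPH, 16 CFAP and 14 IFT genes and the 5 genes named one by one. The rule itself uses names only, but the genes were chosen with earlier results of these data known. Counts of these genes beside those over all genes are therefore descriptions and not tests. The data are read counts per gene from endometrium, the lining of the uterus, of 15 heifers (Bos taurus) on day 14 of pregnancy, with 1 library for each heifer. The labels give 5 Infertile, 5 Sub-fertile and 5 High-fertile heifers, and how a heifer came to its class is not stated in the sources used. In all 15, per the labels' protocols, the cycle was synchronised with prostaglandin F, gonadotropin-releasing hormone, a vaginal progesterone insert, estradiol and progesterone. All then received an in vivo embryo on day 7, and the biopsy was cut with forceps after a uterine flush, on the side of the corpus luteum.

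A motile cilium is built around the axoneme, a ring of microtubule doublets with a central pair. Outer and inner dynein arms, made of heavy chains (DNAH genes) and intermediate chains (DNAI genes), slide the doublets past each other, tektins stiffen the doublet wall, and radial spokes relay signals from the central pair to the arms. Intraflagellar transport (IFT) carries building blocks along motile and also along primary cilia, so the IFT genes are used by many cell types, while FOXJ1 is the transcription factor that switches on the motile programme. In the uterus ciliated cells lie among secretory cells, and in the oviduct and uterus of mammals their number and activity are known to follow the ovarian steroids.

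Of the 61 genes, 58 had enough reads to be tested among 19962 genes. The exceptions were DNAH14 with 37 reads, RSPH6A with 79 reads and TEKT5 with 1 read over all 15 libraries. Library totals ran from 40061511 to 51009815 reads (Infertile), from 38017136 to 62858724 (Sub-fertile) and from 40542008 to 56164970 (High-fertile). By their reads from pseudogenes and ribosomal RNA genes the libraries fell into 3 sets that the labels do not name, and results that rest on them are given with and without them. The largest set held 8 libraries (Infertile replicates 1 and 4, Sub-fertile replicates 3 and 4, High-fertile replicates 2 to 5). The second held 5 libraries (Infertile replicates 3 and 5, Sub-fertile replicates 1, 2 and 5), with none of the High-fertile class, and the third held Infertile replicate 2 and High-fertile replicate 1. Levels are given in CPM, read counts scaled to the library total corrected by its TMM factor.

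Set by their level per length, the cilia genes spanned a wide range. TPPP3, a tubulin-binding protein that is abundant in ciliated cells but not limited to them, led with a mean of 57.7 CPM per kb over the 15 libraries. CFAP36 (45.7 CPM per kb), IFT57 (32.7), IFT20 (24.7) and FOXJ1 (19.3) came next, and the library ranges of neighbours in this order overlapped. The IFT genes stood in the upper part of the order, and the lowest levels were those of dynein heavy chains, with 0.232 CPM per kb for DNAH8 and 0.210 for DNAH17, which are known as outer arm chains of sperm in human and mouse. The spread between heifers ran the other way in part. The highest library was 14.2 times the lowest for SNTN and 9.99 times the lowest for ARMC3, but 1.54 times for IFT46.

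**Figure D1:**
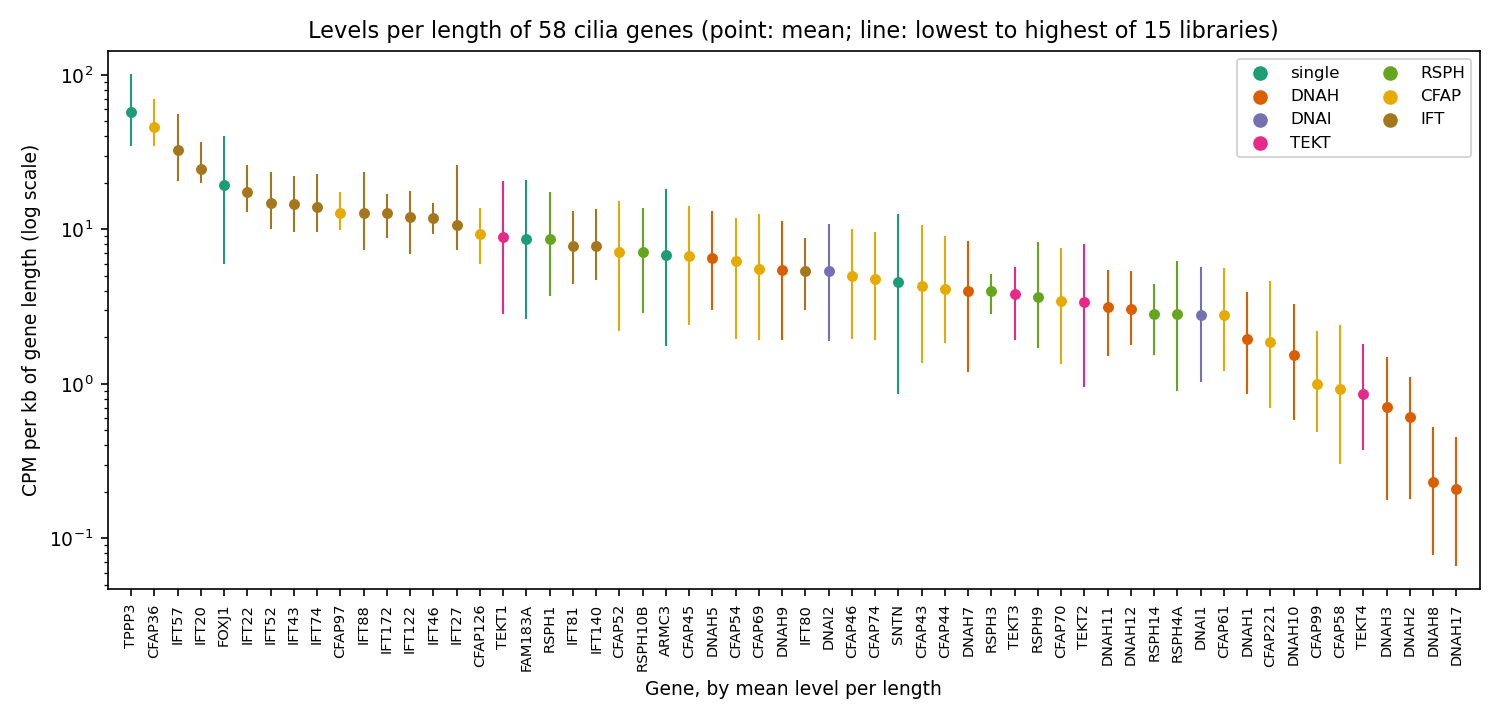
Mean level (CPM per kb of gene length, log axis) of the 58 tested cilia genes, ordered from high to low and coloured by family; each line runs from the lowest to the highest of 15 libraries. IFT genes (brown) crowd the left side with short lines, and DNAH genes (orange) the right side, down to 0.210 CPM per kb for DNAH17.

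The members outside the IFT family are called axonemal here, although FOXJ1 and TPPP3 are among them. Most of them were high or low together in the same heifers, with exceptions such as DNAH17 and CFAP97. Summed over these members, untested ones included, the level was 684, 1272, 1357, 1432 and 1873 CPM in the Infertile heifers. It was 1369, 732, 1687, 604 and 1081 CPM in the Sub-fertile heifers and 825, 883, 899, 555 and 754 CPM in the High-fertile heifers. Infertile replicates 2 to 5 and Sub-fertile replicates 1, 3 and 5 lay above all High-fertile heifers, while Infertile replicate 1 and Sub-fertile replicates 2 and 4 lay within the High-fertile range. Gene by gene, 52 of the 58 members stood above every High-fertile library in Infertile replicate 2, 45 in replicate 3, 53 in replicate 4 and 50 in replicate 5, but 5 in Infertile replicate 1. In the Sub-fertile heifers the numbers were 45 in replicate 1, 10 in replicate 2, 52 in replicate 3, 0 in replicate 4 and 33 in replicate 5. Below every High-fertile library stood 20 members in Sub-fertile replicate 4, 15 in replicate 2 and 7 in replicate 5, and at most 5 in each other library of the Infertile and Sub-fertile classes. Over all tested genes the share above every High-fertile library was 20.7% to 32.9% in the Infertile and 15.3% to 30.8% in the Sub-fertile libraries. The share of all genes below every High-fertile library is not given here. Infertile replicate 5 held the highest of all 15 values for 32 members, and High-fertile replicate 4 held the lowest for 23. The shares of all genes with their highest or lowest value in these libraries are not given here. Infertile replicate 5 was also the library with the largest share of all genes above every High-fertile library, 32.9%. In a biopsy, fewer ciliated cells and less RNA per ciliated cell cannot be told apart.

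**Figure D2:**
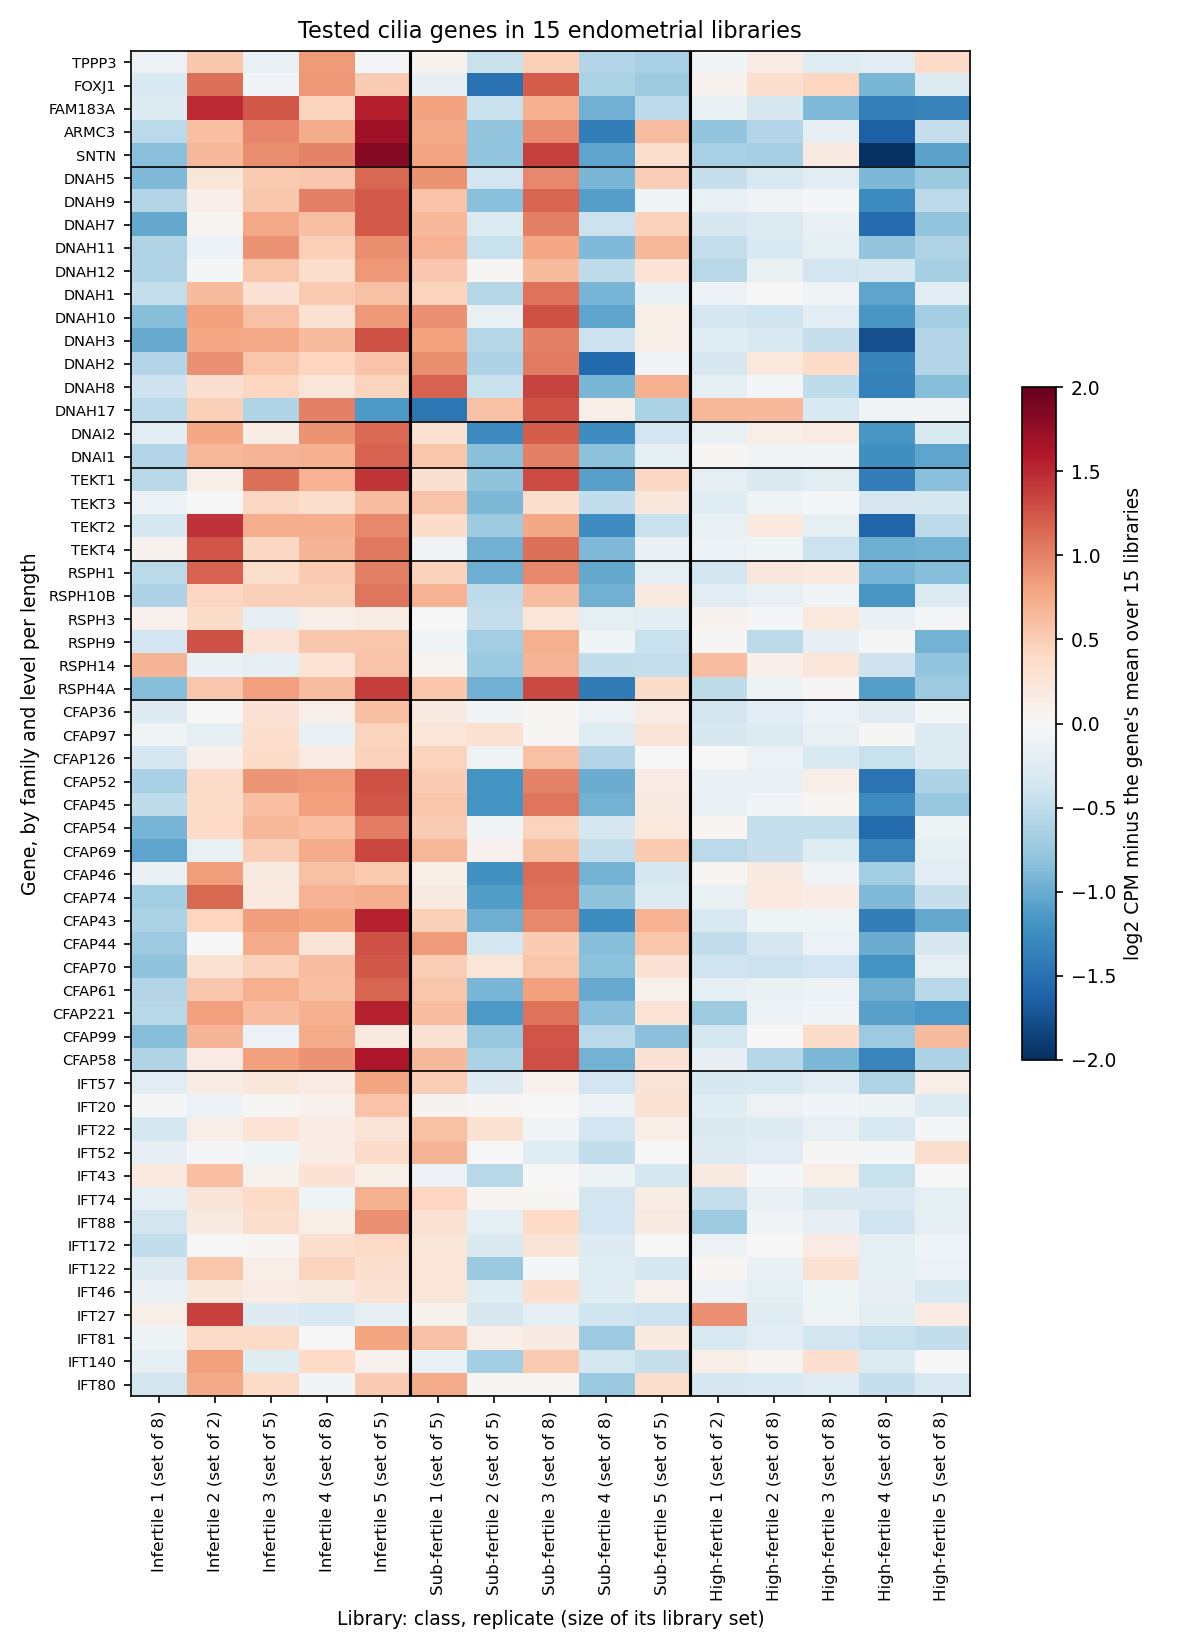
log2 CPM of each tested cilia gene minus its mean over the 15 libraries, with genes in rows by family and libraries in columns by class; red is above and blue below the gene's mean. Red columns reach through all families in Infertile replicates 2 to 5 and Sub-fertile replicates 1 and 3, and blue columns in High-fertile replicate 4 and Sub-fertile replicate 4, with paler IFT rows at the bottom.

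Nearly every cilia gene stood higher in the Infertile than in the High-fertile class, but no single gene passed the test. By edgeR's quasi-likelihood test with Benjamini-Hochberg adjustment, 0 of the 58 members and 0 of the 19962 genes (0%) reached an adjusted p of 0.05. The fitted fold change was above 0 for 57 of 58 members (98.3%), against 53.5% of all genes tested, and its median was 0.74 on the log2 scale, against 0.04 for all genes. At an unadjusted p under 0.05, 35 members (60.3%) were higher and 0 lower, against 7.14% of all genes higher and 3.89% lower. The class ranges did not overlap for 2 members, IFT81 and TEKT4, both higher in the Infertile class (3.45%). In that way 1.13% of all genes were higher and 1.1% lower. The smallest adjusted p of a member was 0.435. DESeq2 put 34 genes past the threshold, among them 1 member, FAM183A (adjusted p = 0.0234), the edgeR likelihood ratio test put 8 genes and limma-voom 1 gene past it, with 0 members each.

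These counts rested in part on single libraries and on the library sets. Without Infertile replicate 5 the number of members at an unadjusted p under 0.05 was 15 and the median 0.61, and without Infertile replicate 1 they were 42 and 0.90. The share of all genes at such a p in those fits is not given here. With the library set in the model, 57 of 58 members were higher with a median of 0.65, and 13 had an unadjusted p under 0.05, against 7.66% of all genes in either direction. Without the set of 5 libraries, 58 of 58 were higher with a median of 0.54, and 5 had such a p, against 5.87%. Within the set of 8 libraries, with 2 Infertile and 4 High-fertile heifers, 54 of 58 were higher with a median of 0.39, and 0 had such a p, against 4.39%.

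The size of the shift varied between families, and differences between families were not tested. The median log2 fold change was 1.51 for the 5 genes named one by one, 1.18 for the tektins, 0.92 for the CFAP genes, 0.92 for the pair of DNAI genes, 0.89 for the dynein heavy chains, 0.81 for the radial spoke genes and 0.30 for the IFT genes. By gene length, the median was 0.49 for the 16 members under 2 kb, 0.78 for the 19 of 2 to 4 kb, 0.56 for the 9 of 4 to 6 kb, 0.89 for the 4 of 6 to 10 kb and 0.82 for the 10 over 10 kb. All genes of these lengths had medians of 0.03 to 0.07. The 5 genes named one by one ran from 0.25 (TPPP3) to 1.77 (FAM183A). Within the set of 8 libraries the family medians were smaller. They were 0.84 for these 5 genes, 0.73 for the tektins, 0.54 for the CFAP genes and 0.66 for the DNAI genes. For the heavy chains the median was 0.47, for the radial spoke genes 0.42 and for the IFT genes 0.10.

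**Figure D3:**
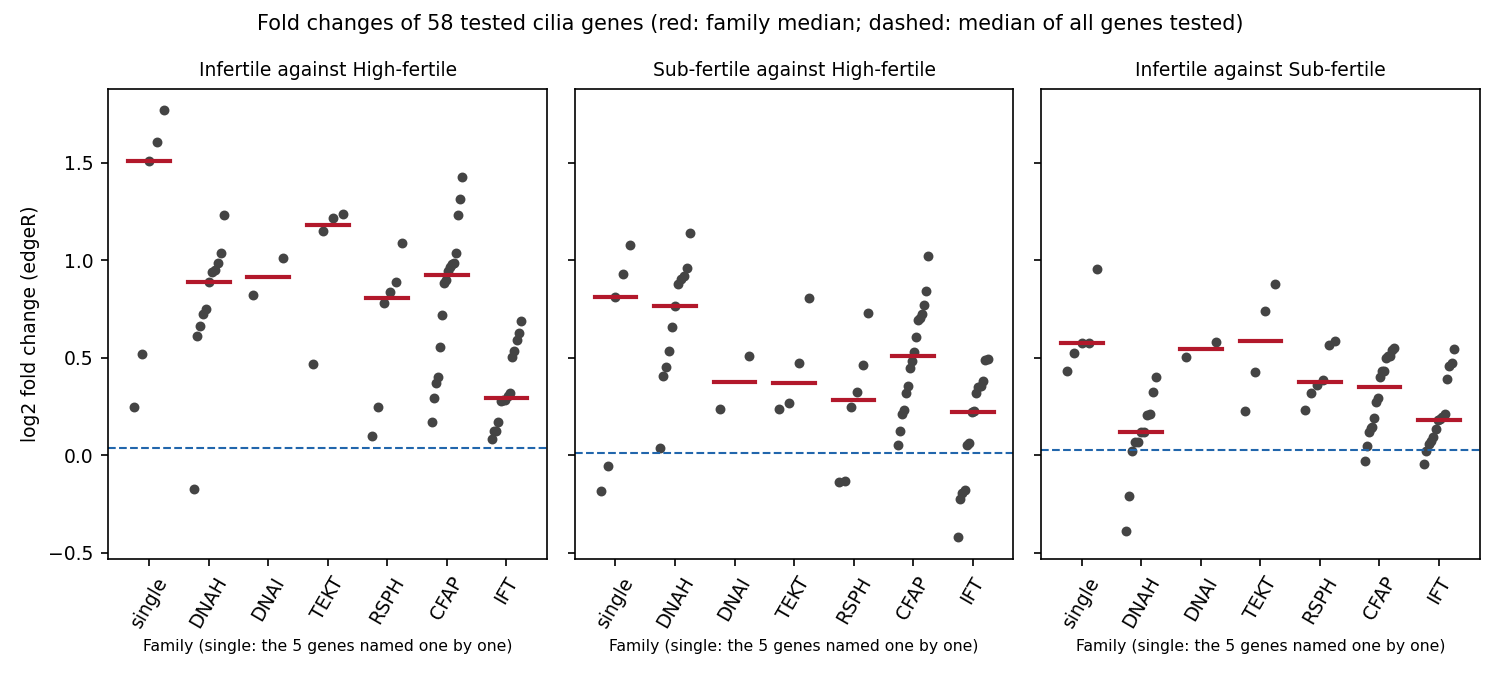
log2 fold change (edgeR) of each tested cilia gene by family in the 3 comparisons; red bars mark family medians and the dashed line the median of all genes tested. In Infertile against High-fertile the points lie above 0 except DNAH17, and the IFT median (0.30) is lower than those of the other families.

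FOXJ1, the switch of the motile programme, had 37.95, 101, 44.9, 84.997 and 66.6 CPM in the Infertile heifers, 41.8, 16.6, 108, 29.98 and 28.6 CPM in the Sub-fertile heifers and 48.9, 58.6, 62.8, 24.7 and 38.9 CPM in the High-fertile heifers. The Infertile heifers reached higher than the High-fertile ones, with overlap, and Sub-fertile replicate 3 stood far above the rest of its class. The log2 fold change of Infertile against High-fertile was 0.52 ± 0.44 (SE), with an adjusted p of 0.615 by edgeR. SNTN, a protein of the ciliary tip known from human airway and oviduct, had 0.6703, 1.87, 2.29, 2.38 and 4.24 CPM in the Infertile heifers, 2.06, 0.695, 3.09, 0.574 and 1.53 CPM in the Sub-fertile heifers and 0.767, 0.754, 1.36, 0.298 and 0.5695 CPM in the High-fertile heifers. Infertile replicate 1 lay inside the High-fertile range and the other 4 Infertile heifers above it, and the log2 fold change was 1.60 ± 0.55 (SE).

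ARMC3, an armadillo repeat protein of ciliated cells and sperm, had 15.3, 33.8, 44.1, 37.4 and 72.001 CPM in the Infertile heifers, 37.7, 12.8, 42.8, 8.52 and 34.1 CPM in the Sub-fertile heifers and 12.9, 14.9, 19.99, 7.204 and 16.3 CPM in the High-fertile heifers. Again 4 of 5 Infertile heifers lay above all High-fertile ones, with a log2 fold change of 1.51 ± 0.46 (SE). FAM183A, a small ciliary protein, had 4.75, 15.98, 13.5, 7.69 and 16.7 CPM in the Infertile heifers, 9.87, 4.17, 9.33, 2.92 and 3.94 CPM in the Sub-fertile heifers and 5.17, 4.52, 3.09, 2.19 and 2.24 CPM in the High-fertile heifers. Its Infertile values lay above the High-fertile range except in replicate 1, and it had the smallest p of all members, with a log2 fold change of 1.77 ± 0.43 (SE) and an adjusted p of 0.435 by edgeR. TPPP3 had 53.5, 84.5, 52.7, 105 and 57.01 CPM in the Infertile heifers, 61.4, 42.9, 81.3, 38.6 and 37.2 CPM in the Sub-fertile heifers and 56.2, 65.5, 49.4, 49.7 and 75.9 CPM in the High-fertile heifers. Here the classes overlapped widely, and the log2 fold change was 0.25 ± 0.25 (SE).

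**Figure D4:**
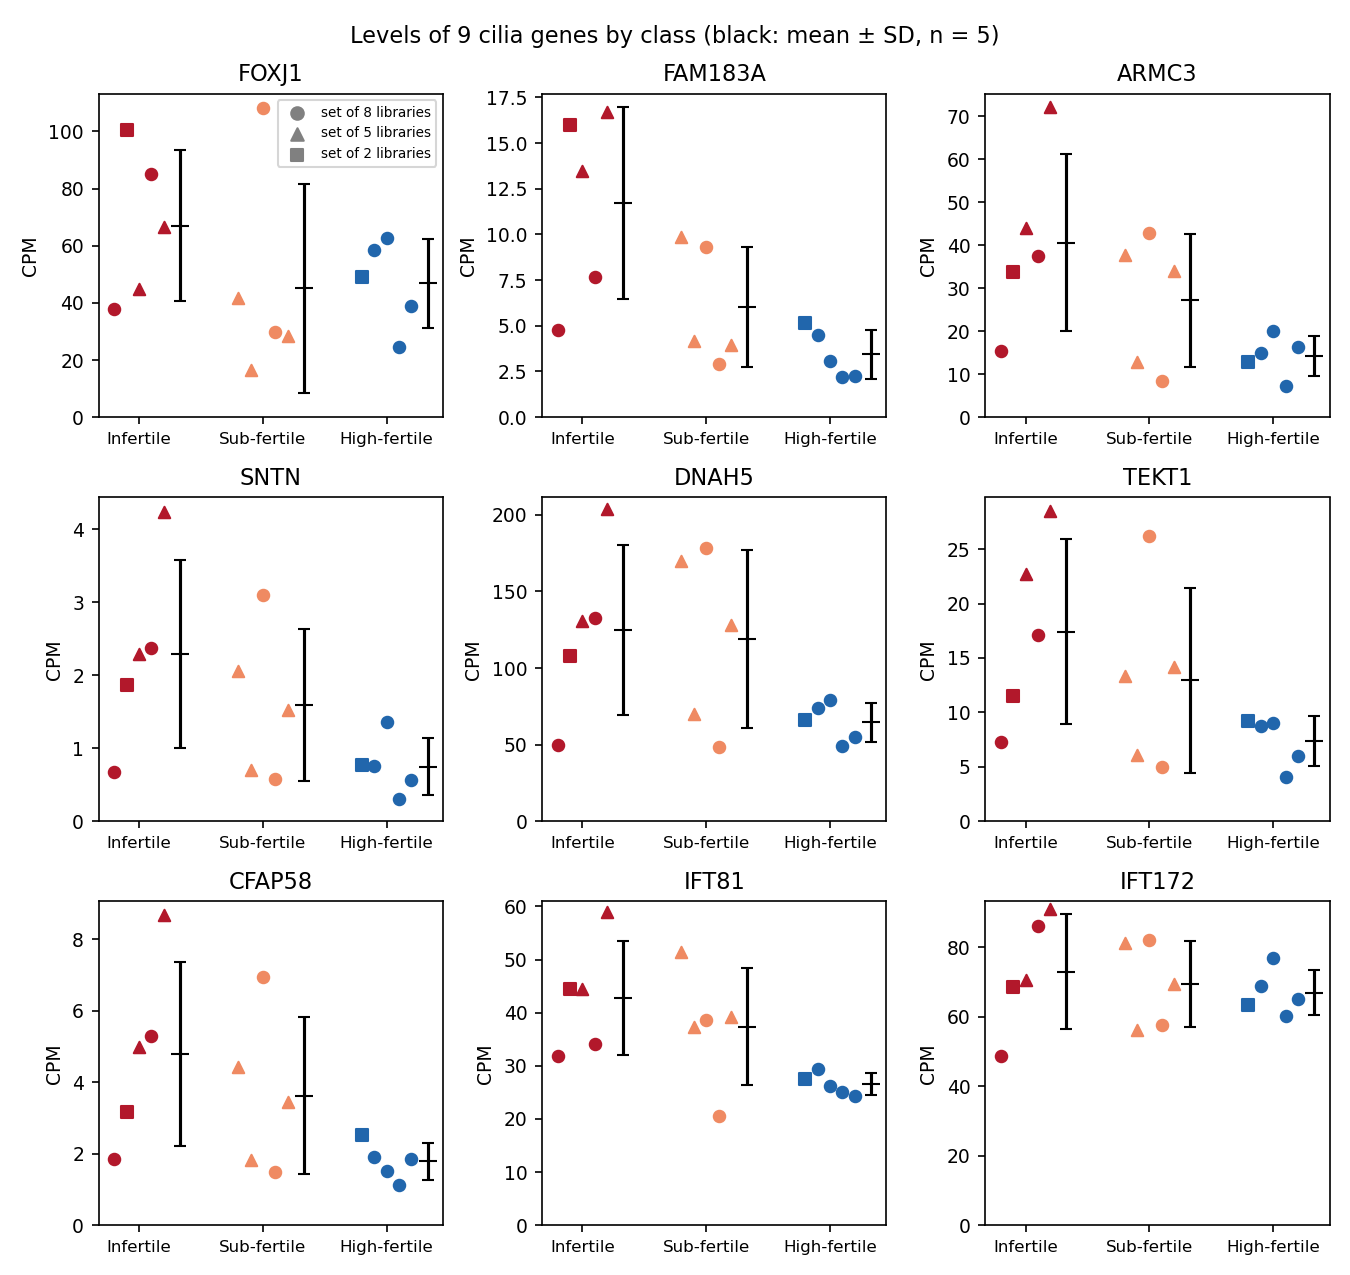
CPM of 9 cilia genes in each heifer by class, with mean and SD (n = 5) in black; the symbol gives the library set. In 4 of 5 Infertile heifers ARMC3, SNTN, FAM183A and DNAH5 lie above every High-fertile heifer, and IFT81 is the gene shown whose Infertile and High-fertile ranges do not overlap.

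Of the 11 tested dynein heavy chains, 10 were higher in the Infertile class and 7 had an unadjusted p under 0.05. Over all genes 53.5% were higher, and 7.14% were higher at such a p. DNAH5, the main heavy chain of the outer arm along the whole cilium, had 49.6, 108, 131, 133 and 204 CPM in the Infertile heifers, 169.9, 70.2, 178, 48.3 and 128 CPM in the Sub-fertile heifers and 66.1, 74.2, 79.2, 49.2 and 54.7 CPM in the High-fertile heifers. All Infertile heifers except replicate 1 lay above the High-fertile range, and so did Sub-fertile replicates 1, 3 and 5. The log2 fold changes were 0.95 ± 0.37 (SE) in Infertile and 0.88 ± 0.37 (SE) in Sub-fertile against High-fertile heifers. DNAH9, its partner in the outer arm of the distal cilium, had 42.4, 68.5, 92.6, 129 and 150.1 CPM in the Infertile heifers, 95.1, 35.9, 143, 29.8 and 61.5 CPM in the Sub-fertile heifers and 57.4, 61.01, 62.5, 26.3 and 44.3 CPM in the High-fertile heifers. It overlapped in the same way through Infertile replicate 1, with a log2 fold change of 0.94 ± 0.43 (SE) in Infertile against High-fertile heifers.

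Among the inner arm chains, DNAH12 had 24.8, 36.6, 55.5, 48.1 and 68.9 CPM in the Infertile heifers, 54.9, 38.4, 58.1, 26.5 and 45.5 CPM in the Sub-fertile heifers and 25.6, 34.05, 28.9, 29.5 and 23.7 CPM in the High-fertile heifers. Infertile replicate 1 was again the one Infertile heifer within the High-fertile range, and the log2 fold change was 0.72 ± 0.25 (SE). DNAH3 had 0.6703, 2.297, 2.29, 2.08 and 3.24 CPM in the Infertile heifers, 2.35, 0.903, 2.71, 0.9998 and 1.48 CPM in the Sub-fertile heifers and 1.14, 1.09, 0.983, 0.398 and 0.895 CPM in the High-fertile heifers, with a log2 fold change of 1.23 ± 0.43 (SE). The length recovered for DNAH3 from the deposited counts and FPKM values was 2.20 kb, against 9.16 to 15.7 kb for the other 10 heavy chains, so its count covers a shorter gene model. The exception of the family, DNAH17, named after its values were seen, averaged 2.899 ± 1.81 CPM in the Infertile class, 3.35 ± 2.24 CPM in the Sub-fertile class and 3.27 ± 1.03 CPM in the High-fertile class (SD, n = 5 each), with a log2 fold change of -0.17 ± 0.49 (SE) in Infertile against High-fertile heifers.

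Per length, DNAH5 made up 23.5% of the summed heavy chain level on average over the 15 libraries and DNAH9 19.3%, followed by DNAH7 with 14.3%, DNAH12 with 11.9% and DNAH11 with 11.6%. By class, DNAH5 made up 23.1% ± 1.59 in Infertile, 24.6% ± 2.31 in Sub-fertile and 22.8% ± 1.56 in High-fertile heifers (SD, n = 5 each). DNAH9 made up 20.96% ± 3.103 in Infertile, 16.9% ± 2.98 in Sub-fertile and 20.1% ± 2.44 in High-fertile heifers. These shares were not tested between classes.

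The intermediate chains DNAI1 and DNAI2 sit together at the base of the outer arm. DNAI1 had 4.61, 10.9, 11.1, 11.3 and 15.7 CPM in the Infertile heifers, 10.1, 3.89, 13.9, 3.92 and 6.102 CPM in the Sub-fertile heifers and 7.05, 6.59, 6.68, 2.95 and 3.34 CPM in the High-fertile heifers. Infertile replicate 1 was within the High-fertile range and the other Infertile heifers above it, and the log2 fold change was 1.01 ± 0.41 (SE). DNAI2 had 12.3, 24.4, 15.8, 26.8 and 31.3 CPM in the Infertile heifers, 17.8, 5.95, 33.1, 6.08 and 10.997 CPM in the Sub-fertile heifers and 12.9, 15.8, 16.01, 6.43 and 11.6 CPM in the High-fertile heifers. Its classes overlapped more, since Infertile replicates 1 and 3 did not exceed the highest High-fertile heifer, and the log2 fold change was 0.82 ± 0.44 (SE).

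TEKT1, a tektin, which is a filament protein inside the doublet, had 7.25, 11.5, 22.8, 17.1 and 28.5 CPM in the Infertile heifers, 13.3, 6.04, 26.3, 4.98 and 14.2 CPM in the Sub-fertile heifers and 9.25, 8.73, 9.04, 4.06 and 5.96 CPM in the High-fertile heifers. TEKT4 had 1.24, 2.81, 1.56, 1.89 and 2.45 CPM in the Infertile heifers, 1.12, 0.602, 2.53, 0.639 and 1.07 CPM in the Sub-fertile heifers and 1.09, 1.11, 0.876, 0.597 and 0.6102 CPM in the High-fertile heifers. At its low level TEKT4 was 1 of the 2 cilia genes whose lowest Infertile heifer exceeded the highest High-fertile heifer, and its log2 fold change was 1.21 ± 0.40 (SE) (adjusted p = 0.435 by edgeR). That of TEKT1 was 1.23 ± 0.45 (SE). TEKT2 averaged 8.67 ± 3.42 CPM in the Infertile class, 4.71 ± 2.61 CPM in the Sub-fertile class and 3.91 ± 1.49 CPM in the High-fertile class (SD, n = 5 each), with a log2 fold change of 1.15 ± 0.42 (SE) in Infertile against High-fertile heifers, and for TEKT3 the value was 0.47 ± 0.26 (SE).

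RSPH1, a protein of the spoke head, had 6.64, 21.9, 12.4, 13.9 and 19.6 CPM in the Infertile heifers, 13.4, 4.91, 18.9, 4.77 and 8.42 CPM in the Sub-fertile heifers and 7.42, 11.3, 11.04, 5.07 and 5.37 CPM in the High-fertile heifers. Its Infertile values exceeded the High-fertile range in 4 of 5 heifers, with a log2 fold change of 0.89 ± 0.41 (SE). RSPH9, of the same head, averaged 4.55 ± 1.89 CPM in the Infertile class, 3.03 ± 1.22 CPM in the Sub-fertile class and 2.55 ± 0.654 CPM in the High-fertile class (SD, n = 5 each; log2 fold change 0.83 ± 0.33 (SE) in Infertile against High-fertile). RSPH10B had 14.9, 30.3, 31.6, 31.7 and 47.4 CPM in the Infertile heifers, 36.7, 15.9, 34.7, 11.7 and 25.9 CPM in the Sub-fertile heifers and 19.5, 20.4, 21.9, 10.2 and 18.7 CPM in the High-fertile heifers, with a log2 fold change of 0.78 ± 0.34 (SE), and High-fertile replicate 4 stood apart below the other High-fertile heifers. RSPH3, of the spoke stalk and named after its values were seen, differed little, with 15.2 ± 1.98 CPM in Infertile and 14.2 ± 1.27 CPM in High-fertile heifers (SD, n = 5 each) and a log2 fold change of 0.10 ± 0.15 (SE).

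The CFAP family joins cilia and flagella associated proteins of many kinds. All 16 were higher in the Infertile class (53.5% of all genes were), 11 of them at an unadjusted p under 0.05 (7.14% of all genes). CFAP36 and CFAP97 had the highest levels per length, and their fold changes were small: CFAP36 averaged 68.7 ± 15.6 CPM in the Infertile class, 62.3 ± 5.54 CPM in the Sub-fertile class and 53.1 ± 4.46 CPM in the High-fertile class (SD, n = 5 each), with a log2 fold change of 0.37 ± 0.14 (SE), and CFAP97 had 0.29 ± 0.15 (SE). Within the set of 8 libraries CFAP36 was at 0.084 and CFAP97 at 0.047. The smallest p values belonged to CFAP58 and CFAP70. CFAP58, a protein of the sperm flagellum in human and mouse, had 1.86, 3.17, 4.99, 5.295 and 8.68 CPM in the Infertile heifers, 4.44, 1.83, 6.94, 1.48 and 3.46 CPM in the Sub-fertile heifers and 2.52, 1.905, 1.52, 1.13 and 1.85 CPM in the High-fertile heifers. CFAP70, tied to the outer dynein arm, had 6.26, 13.4, 14.98, 16.7 and 25.8 CPM in the Infertile heifers, 15.3, 12.9, 16.04, 6.15 and 13.4 CPM in the Sub-fertile heifers and 8.31, 8.08, 8.38, 4.76 and 9.601 CPM in the High-fertile heifers. For both, Infertile replicate 1 lay within the High-fertile range and the other 4 Infertile heifers above it; the log2 fold changes were 1.43 ± 0.45 (SE) for CFAP58 and 0.98 ± 0.33 (SE) for CFAP70.

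All 14 genes of intraflagellar transport were higher in the Infertile class by small amounts, from 0.08 to 0.69 on the log2 scale, and 6 had an unadjusted p under 0.05. The shares over all genes were 53.5% higher and 7.14% higher at such a p. IFT81, which with IFT74 forms the tubulin-binding module of complex B, had 31.9, 44.4, 44.4, 34.05 and 59.0001 CPM in the Infertile heifers, 51.4, 37.2, 38.6, 20.5 and 39.2 CPM in the Sub-fertile heifers and 27.5, 29.5, 26.2, 25.2 and 24.3 CPM in the High-fertile heifers. The Infertile and High-fertile ranges of IFT81 did not overlap; the log2 fold change was 0.69 ± 0.21 (SE), with an adjusted p of 0.435 by edgeR. IFT74 had 35.9, 48.7, 53.6, 38.04 and 66.5 CPM in the Infertile heifers, 54.7, 42.01, 40.98, 31.4 and 45.1 CPM in the Sub-fertile heifers and 29.2, 36.6, 33.3, 32.7 and 35.6 CPM in the High-fertile heifers. Infertile replicate 1, the lowest of its class, lay within the High-fertile range, and the log2 fold change was 0.53 ± 0.17 (SE). These values were smaller without the libraries of the set of 5, to which the highest heifer, Infertile replicate 5, belongs. IFT81 was at 0.46 and IFT74 at 0.28 without that set, and at 0.32 and 0.086 within the set of 8. IFT57 averaged 61.2 ± 16.6 CPM in the Infertile class, 53.9 ± 13.5 CPM in the Sub-fertile class and 43.1 ± 8.203 CPM in the High-fertile class (SD, n = 5 each), with a log2 fold change of 0.50 ± 0.21 (SE) in Infertile against High-fertile heifers. IFT20, which also serves vesicle sorting at the Golgi, averaged 33.8 ± 6.98 CPM in the Infertile class, 32.5 ± 3.53 CPM in the Sub-fertile class and 27.9 ± 1.85 CPM in the High-fertile class (SD, n = 5 each), with a log2 fold change of 0.28 ± 0.13 (SE). IFT172, a subunit of complex B, was named after its values were seen. It averaged 73.03 ± 16.7 CPM in the Infertile class, 69.3 ± 12.4 CPM in the Sub-fertile class and 66.9 ± 6.42 CPM in the High-fertile class (SD, n = 5 each), with a log2 fold change of 0.13 ± 0.16 (SE).

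The Sub-fertile class was divided: the summed axonemal level was above the High-fertile range in replicates 1, 3 and 5 and within it in replicates 2 and 4, where single genes such as DNAH5 (48.3 CPM in replicate 4) also lay below that range. By edgeR, 0 of 58 members and 0 of 19962 genes (0%) passed the threshold in Sub-fertile against High-fertile heifers. The fold change was above 0 for 50 of 58 members (86.2%, against 51% of all genes), with a median of 0.43 against 0.01 for all genes. The class ranges overlapped for all but 0 members, while 2.26% of all genes were higher and 2.81% lower without overlap. At an unadjusted p under 0.05, 11 members (19%) were higher and 0 lower, against 6.58% of all genes higher and 7.14% lower. DESeq2 put 18 genes past the threshold, the likelihood ratio test 13 and limma-voom 0, with 0 members each.

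All 11 dynein heavy chains were higher in this comparison, against 51% of all genes, with a median log2 fold change of 0.76. Heavy chains were 6 of the 11 members with an unadjusted p under 0.05, and 6.58% of all genes were higher at such a p. The median of the 5 genes named one by one was 0.81. In this comparison the fold change of all genes went up with gene length, with medians of -0.02 for all genes under 2 kb and 0.16 for the 384 over 10 kb, of which 253 were higher. The 16 members under 2 kb had a median of 0.26 and the 10 members over 10 kb one of 0.68. DNAH8, named for this after its values were seen, had the smallest p of all members (log2 fold change 1.14 ± 0.40 (SE), adjusted p = 0.3595 by edgeR). DNAH8 had 2.199, 3.68, 3.94, 3.48 and 4.01 CPM in the Infertile heifers, 6.69, 2.15, 7.49, 1.56 and 4.83 CPM in the Sub-fertile heifers and 2.57, 2.88, 2.07, 1.15 and 1.63 CPM in the High-fertile heifers. Sub-fertile replicates 1, 3 and 5 lay above every High-fertile heifer, and replicates 2 and 4 within their range. The 16 CFAP genes were all higher too, with a median of 0.51. Of the 14 IFT genes 10 were higher, with a median of 0.22. Of complex A, the retrograde complex, IFT43 (-0.19), IFT122 (-0.18) and IFT140 (-0.22) had values below 0, with unadjusted p values of 0.254 to 0.369, while WDR35, a subunit of the same complex, had 0.37 ± 0.17 (SE). FOXJ1 itself had -0.05 ± 0.44 (SE) and TPPP3 -0.18 ± 0.25 (SE).

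The count of 11 moved with single heifers. It was 1 without Sub-fertile replicate 1, 5 without replicate 3, 4 without replicate 5, 16 without replicate 2 and 25 without replicate 4; without High-fertile replicates 2, 4 and 5 it was 6, 3 and 4. Without Infertile replicate 1, which enters only through the shared spread, it was 19. For these fits the share of all genes at an unadjusted p under 0.05 is not given here. The median without Sub-fertile replicate 3 was 0.23. With the library set in the model 53 of 58 members were higher with a median of 0.38, and 1 had an unadjusted p under 0.05, against 2.51% of all genes. Within the set of 8 libraries, with 2 Sub-fertile and 4 High-fertile heifers, 53 were higher with a median of 0.54 and 0 had such a p, against 7.43%. This comparison and the one above share the High-fertile heifers.

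The Infertile and Sub-fertile classes overlapped in every cilia gene but IFT43. By edgeR 0 of 58 members and 0 of 19962 genes (0%) passed the threshold, with adjusted p values of 0.998 for the members. Fold changes were above 0 for 54 of 58 members (93.1%, against 54.7% of all genes), with a median of 0.31 against 0.03. At an unadjusted p under 0.05, 3 members (IFT43, IFT122 and FAM183A) were higher and 0 lower, against 1.91% and 0.721% of all genes. That count was 15 without Sub-fertile replicate 3, 6 without Infertile replicate 1, and 1 without Infertile replicate 2 or without Sub-fertile replicate 2 or 5. The share of all genes in those fits is not given here. With the library set in the model the count was 1, against 1.75% of all genes in either direction. Within the set of 8 libraries it was 0, against 4.71%. DESeq2 put 11 genes past the threshold, the likelihood ratio test 8 and limma-voom 1, with 0 members each.

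IFT43 had 14.5, 19.4, 13.5, 15.5 and 13.9 CPM in the Infertile heifers, 11.7, 8.71, 12.8, 11.9 and 10.04 CPM in the Sub-fertile heifers and 14.4, 12.5, 14.1, 9.37 and 12.7 CPM in the High-fertile heifers. It was the 1 member whose Infertile and Sub-fertile ranges did not overlap (0.12% of all genes were higher and 0.0852% lower in that way), and the log2 fold change was 0.48 ± 0.16 (SE). IFT122, of the same complex A, averaged 60.4 ± 12.4 CPM in the Infertile class, 43.9 ± 10.95 CPM in the Sub-fertile class and 49.7 ± 7.15 CPM in the High-fertile class (SD, n = 5 each), with a log2 fold change of 0.46 ± 0.18 (SE). IFT27, IFT43, IFT122 and IFT140 lie outside the rule for named genes and were picked once their values were known. For the heavy chains the median log2 fold change was 0.12. Within the set of 8 libraries, with 2 heifers of each of these classes, 22 of 58 members were higher, with a median of -0.05, and 0 of 11 heavy chains. Without Infertile replicate 5 the median over all members was 0.13, and without Sub-fertile replicates 2, 3 and 4 it was 0.19, 0.51 and 0.17.

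Tested for any difference among the 3 classes, 0 of 58 members and 0 of 19962 genes passed by edgeR, with a smallest adjusted p among members of 0.550, and 22 members (37.9%) had an unadjusted p under 0.05, against 8.42% of all genes.

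DNAH5 and FOXJ1 stood in different ratios in different library sets. The ratio of DNAH5 to FOXJ1, in CPM, was 2.92 to 4.48 in the 5 libraries of the second set, 1.26 to 1.99 in the set of 8, and 1.07 and 1.35 in Infertile replicate 2 and High-fertile replicate 1. In this ratio the set of 5 stood apart from the other 10 libraries without overlap, in both classes it held. The ratio of TPPP3 to FOXJ1 overlapped, with 0.856 to 2.58 in the set of 5 and 0.7502 to 2.01 in the set of 8. In a model with class, FOXJ1 had a log2 fold change of -0.79 ± 0.42 (SE) in the set of 5 against the set of 8 (adjusted p = 0.191 by edgeR), DNAH5 0.46 ± 0.39 and TPPP3 -0.45 ± 0.25. The axonemal members lay on both sides in that contrast: 31 of 44 outside the IFT family were higher in the set of 5 and 13 lower, from -1.12 (DNAH17) to 0.78 (CFAP44). In that contrast 5 members passed the threshold as higher, CFAP97, IFT22, IFT74, IFT80 and IFT81 (8.62%, against 13.1% of all genes), and 0 as lower, against 17.6%. All genes over 10 kb had a median of 0.16 in this contrast and all genes under 2 kb one of -0.10. With the set in the model, the log2 fold change of FOXJ1 in Sub-fertile against High-fertile heifers was 0.35, on the other side of 0 from the value without it.

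**Figure D5:**
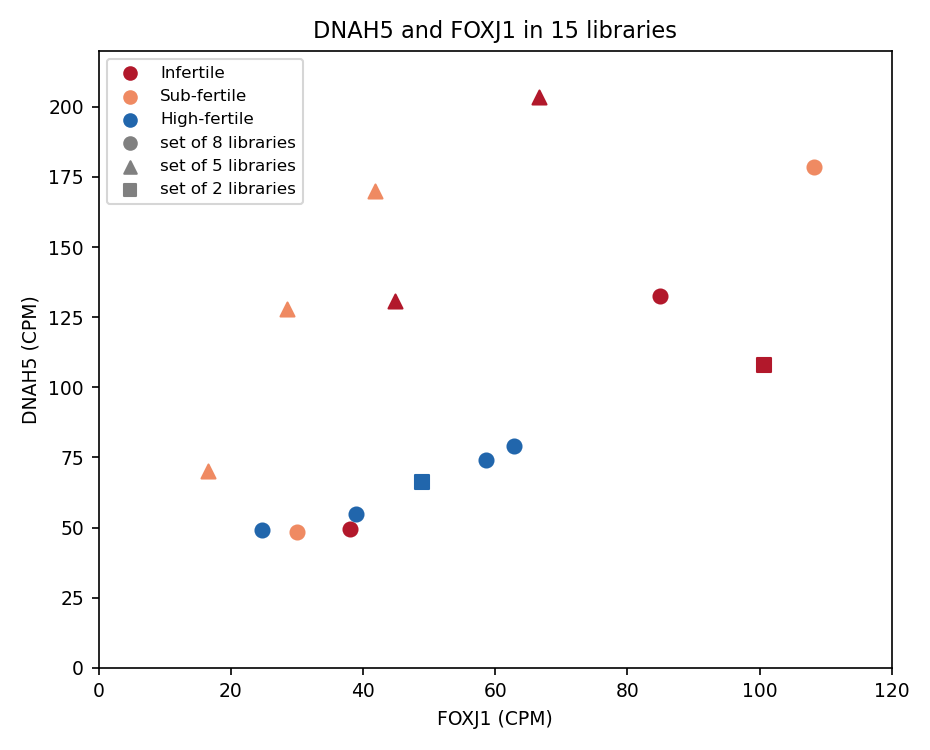
DNAH5 against FOXJ1 (both CPM) in the 15 libraries, coloured by class and with a symbol for the library set. The 5 triangles of the second set lie on a steeper line (DNAH5 at 2.92 to 4.48 times FOXJ1) than the circles of the set of 8 (1.26 to 1.99 times).

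The members varied together across heifers. Over the 15 libraries the Spearman correlation of a member with the mean of the other non-IFT members had a median of 0.904 for the 44 genes outside the IFT family, with 34 above 0.8, and of 0.702 for the 14 IFT genes. These are descriptions over libraries that share their scaling and tissue makeup. CFAP45 (0.982), DNAH9 (0.979), CFAP61 (0.975) and RSPH4A (0.975) followed the others most closely, and DNAH17 (-0.06) and IFT27 (0.11) least. FOXJ1 had 0.786, and 0.975 once each library set's mean had been subtracted. CFAP45, CFAP61, RSPH4A, DNAH17 and IFT27 were picked by these values.

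Outside the members, the genes whose levels over the 15 libraries were most like the mean of the axonemal members were NEK5 (0.996), WDR93 (0.989), VWA3A (0.986), LOC530264 (0.982), LOC100848072 (0.979), LOC104968668 (0.979), CCDC40 (0.975), TSNAXIP1 (0.975), TTC21A (0.975) and CCDC180 (0.971), by Spearman correlation. CCDC40 sets the spacing of the inner arms together with CCDC39, and LOC104968668 is described in the gene table as a kinesin like KIF6. NEK5 averaged 11.3 ± 4.803 CPM in the Infertile class, 8.596 ± 4.48 CPM in the Sub-fertile class and 5.14 ± 1.55 CPM in the High-fertile class (SD, n = 5 each). Of the 200 genes most alike, 35 stood in the lists of other cilia genes, which hold 98 tested genes in all.

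Those lists moved to the same side in Infertile against High-fertile heifers, with 0 genes of any list past the adjusted threshold by edgeR. Of 24 other genes of ciliated cells, 24 were higher with a median log2 fold change of 0.99, 19 of them at an unadjusted p under 0.05. In the docking, ruler and nexin-dynein regulatory complexes 11 of 12 were higher (median 0.97, 7 with such a p), in the central pair 8 of 8 (0.98, 4), among dynein assembly factors 10 of 11 (0.67, 5), among dynein light chains 6 of 7 (0.50, 4), among regulators of ciliogenesis 11 of 12 (0.41, 4), and in dynein 2, kinesin 2 and the BBSome, which serve primary cilia as well, 20 of 24 (0.29, 9). The background for these counts is the 53.5% of genes higher and the 7.14% higher at such a p. The dynein 2, kinesin 2 and BBSome list also differed by library set. In the set of 5 against the set of 8, 10 of its 24 genes passed the adjusted threshold by edgeR as higher, against 13.1% of all genes. As lower 3 passed, against 17.6%.

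LRRC6, which helps to assemble dynein arms in the cytoplasm, had 13.5, 19.8, 26.9, 21.98 and 32.1 CPM in the Infertile heifers, 23.9, 11.1, 20.3, 9.39 and 21.4 CPM in the Sub-fertile heifers and 10.6, 11.7, 12.4, 9.93 and 8.48 CPM in the High-fertile heifers. All Infertile heifers lay above all High-fertile heifers, with a log2 fold change of 1.10 ± 0.27 (SE) and an adjusted p of 0.435 by edgeR. LRRC6 was named for the smallest p of its list, and it was 1 of 11 assembly factors without overlap. The other cilia lists held no such gene, and over all genes 1.13% were higher in that way. PIH1D3, another assembly factor, had 1.54 ± 0.41 (SE). CCDC39, the molecular ruler, averaged 44.1 ± 27.7 CPM in Infertile and 16.9 ± 3.67 CPM in High-fertile heifers (SD, n = 5 each; log2 fold change 1.39 ± 0.43 (SE)), and CCDC65, of the nexin-dynein complex, had 1.36 ± 0.43 (SE). In the central pair SPEF2 had 1.30 ± 0.42 (SE) and SPAG6 1.12 ± 0.41 (SE). Under the alternative fits other than leaving 1 heifer out, the lowest values were 0.73 for LRRC6, 1.08 for PIH1D3 and 0.65 for CCDC39. They were 0.70 for CCDC65, 0.61 for SPEF2 and 0.52 for SPAG6.

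MYB, a transcription factor of early multiciliated cells, averaged 25.2 ± 10.3 CPM in Infertile and 10.2 ± 1.76 CPM in High-fertile heifers (SD, n = 5 each), with a log2 fold change of 1.30 ± 0.35 (SE), and RFX3, the partner of FOXJ1, had 0.75 ± 0.25 (SE). ZBBX had 1.69 ± 0.49 (SE), SPA17 1.12 ± 0.33 (SE), the light chain genes TCTEX1D1 and DYNLRB2 1.66 ± 0.46 (SE) and 0.95 ± 0.33 (SE), and the retrograde transport genes DYNC2LI1 and WDR35 0.66 ± 0.17 (SE) and 0.48 ± 0.17 (SE). Every range of these genes except that of LRRC6 overlapped between the classes. Under the alternative fits other than leaving 1 heifer out, those for the library sets among them, the fold changes of this paragraph fell but stayed above 0. The lowest values were 0.48 for MYB, 0.24 for RFX3, 0.72 for ZBBX and 0.43 for SPA17. They were 1.14 for TCTEX1D1, 0.40 for DYNLRB2, 0.28 for DYNC2LI1 and 0.16 for WDR35.

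Markers of the other cells of a biopsy were read beside these values. Of 8 markers of ciliated cells 7 were tested, and PIFO was listed at no more than 0.0261 CPM. All 14 epithelial markers were tested and summed to 1435 to 2162 CPM in the Infertile, 822 to 2408 CPM in the Sub-fertile and 1351 to 1831 CPM in the High-fertile heifers. Their median log2 fold change was 0.12 in Infertile against High-fertile. Per 100 CPM of epithelial markers, the axonemal members came to 47.6 to 89.4 CPM in Infertile, 25.1 to 166 CPM in Sub-fertile and 30.3 to 55.8 CPM in High-fertile heifers. Infertile replicates 2 to 5 and Sub-fertile replicates 1, 2, 3 and 5 lay above the High-fertile range on that scale. The scale also differed by library set. In the set of 5 against the set of 8, 6 of 14 epithelial markers were lower at an adjusted p under 0.05 by edgeR, against 17.6% of all genes.

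All 8 smooth muscle markers were tested, and their levels ran against the cilia genes, with Spearman correlations of -0.73 to -0.51 with the axonemal mean over 15 libraries. They summed to 569 to 23826.5 CPM in the Infertile, 615 to 5847 CPM in the Sub-fertile and 887 to 11619 CPM in the High-fertile heifers, and the highest sum was that of Infertile replicate 1, the Infertile heifer with the lowest cilia genes. In Sub-fertile against High-fertile heifers all 8 were lower (median -1.06 on the log2 scale), and 0 had an unadjusted p under 0.05; in Infertile against High-fertile 5 of 8 were higher, with a median of 0.07. OVGP1, an oviduct glycoprotein, had a correlation of -0.62. Correlations ran from -0.19 to 0.44 for the epithelial, -0.51 to 0.20 for the gland and -0.31 to 0.10 for the stromal markers. They ran from -0.39 to 0.09 for the endothelial and -0.24 to 0.36 for the leukocyte markers. The spread of such correlations over all genes is not given here. All 8 endothelial markers were lower in both classes than in the High-fertile one. Their medians on the log2 scale were -0.50 in Infertile (4 at an unadjusted p under 0.05) and -0.44 in Sub-fertile heifers (3 with such a p). Over all genes, 3.89% were lower with such a p in Infertile and 7.14% in Sub-fertile heifers. The endothelial markers summed to 691 to 1024 CPM in the Infertile, 707 to 1068 CPM in the Sub-fertile and 852 to 1579 CPM in the High-fertile heifers. Of 9 leukocyte markers, 8 were lower in each class than in the High-fertile one, with medians of -0.19 in Infertile (3 with such a p) and -0.42 in Sub-fertile heifers (4 with such a p), and sums of 63.7 to 131 CPM in Infertile, 77.8 to 93.6 CPM in Sub-fertile and 87.9 to 152 CPM in High-fertile heifers. Stromal markers had medians of -0.09 and -0.18 and gland markers of -0.09 and -0.19 in Infertile and in Sub-fertile against High-fertile heifers. No marker of these lists passed the adjusted threshold by edgeR in either comparison, and the part of these cells in the results was not tested. In the set of 5 against the set of 8, 3 of 8 endothelial and 2 of 6 gland markers passed that threshold as lower, against 17.6% of all genes. In the same contrast 1 of 10 stromal markers passed it as higher, against 13.1% of all genes, and no smooth muscle or leukocyte marker passed it. Erythrocyte markers were low, with SLC4A1 at 0 in every library.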

How the data were processed

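Endometrium of 15 heifers was sequenced, 5 per fertility class by the labels, with TruSeq stranded libraries of mRNA (per the labels' protocols). The authors deposited 1 table with a raw read count per gene and heifer and an FPKM value beside it. The submitters' processing notes name Subread, featureCounts, edgeR and the UMD3.1 build, with versions and strand setting not given in the sources used here. Deposited read counts, 38017136 to 62858724 per library, were tested. The deposited FPKM values served to recover gene lengths, and their scaling matched library totals within 0.4%. Gene symbols are those of the table, and 60 of the 61 chosen match a current RefSeq symbol and 1 an older one.

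In R 4.3.3, edgeR 4.0.16 kept 19962 genes (filterByExpr), scaled libraries by TMM and fitted 1 robust quasi-likelihood model with a mean per class over 15 libraries (12 residual degrees of freedom). P values are two-sided and, where called adjusted, are Benjamini-Hochberg adjusted over all genes tested, with a threshold of 0.05. Fold changes are log2 with standard errors, and SD is over 5 heifers. Heifers are named by class and a number given in accession order. With counts of 0, up to 3 reads, 0.0492 to 0.0783 CPM by library, remain possible, for counting error only. Median folds and counts of members are descriptions beside the same over all genes.

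Library sets come from average-linkage clustering of 372 tested pseudogenes and ribosomal RNA genes by log2 CPM (prior count 2), and are not in the labels. Alternatives were RLE scaling, library size alone, no filter, a filter of 1 CPM in 5 libraries, DESeq2 1.42.0, limma-voom (limma 3.58.1), the edgeR likelihood ratio test, no robust estimation, only the 10 libraries compared, the library set as covariate, only the largest set, each library left out in turn and a threshold of 0.10. Leaving out the set of 2 or of 5 libraries was added after seeing the data. The test was tried on simulated counts first.

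The members and gene lists were chosen with earlier results of these data known. Named genes are the 5 genes named one by one, in each family the 2 highest per length and the 2 with the smallest p in Infertile against High-fertile, in each other cilia list the 2 with that smallest p, and the 10 non-members most correlated with the axonemal members. Other members named were chosen after their values were seen, among them DNAH7, DNAH8, DNAH11, DNAH17, IFT46, IFT172 and RSPH3. Promoter and protein sequences were not analysed here.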

Additional observations from a re-analysis of the deposited data

Results flagged for a closer look

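In 90 groups of 5 heifers, 1 for each named member or ratio and class, 6 had a highest or lowest heifer far from the other 4 by Dixon's criterion. Chance flags about 1 in 20 groups. Sub-fertile replicate 3 had 108 CPM of FOXJ1, against 16.6 to 41.8 CPM in the other 4 Sub-fertile heifers, and 2.53 CPM of TEKT4, against 0.602 to 1.12 CPM. High-fertile replicate 4 had 10.2 CPM of RSPH10B, against 18.7 to 21.9 CPM in the other High-fertile heifers. Its ratio of DNAH5 to FOXJ1 was 1.99, against 1.26 to 1.41, and its ratio of DNAH9 to DNAH5 was 0.535, against 0.789 to 0.869. Infertile replicate 5 had 46.0 CPM of IFT20, against 28.5 to 32.8 CPM in the other Infertile heifers.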

How the results depend on the processing

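In Infertile against High-fertile heifers the members' median on the log2 scale stayed above 0 under the alternatives run, from 0.39 (largest set) to 0.90 (without Infertile replicate 1). Of 58 members, 54 to 58 were higher, with 54 in the largest set and without the set of 2, and 60 of 61 with no filter. The number of genes past the threshold was 34 with DESeq2 (1 member), 8 with the likelihood ratio test and 1 with limma-voom, and 0 in every fit that left out 1 heifer. In Sub-fertile against High-fertile it was 18 with DESeq2, 13 with the likelihood ratio test, 0 to 3 without 1 heifer, 3 without the set of 2 and 1 without the set of 5 libraries. In Infertile against Sub-fertile it was 11 with DESeq2, 8 with the likelihood ratio test and 1 with limma-voom, and within the largest set 22 members were higher.

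No gene named by the rule changed sign in Infertile against High-fertile. In Sub-fertile against High-fertile, FOXJ1 was at 0.35 with the set as covariate, 0.56 in the largest set and 0.53 without the set of 5, TPPP3 at 0.081 with the set as covariate and DNAI2 at -0.056 with limma-voom. Without 1 heifer, values ran from -0.67 to 0.16 for FOXJ1, -0.30 to 0.44 for DNAI2, -0.033 to 0.50 for RSPH1, -0.019 to 0.37 for RSPH9 and -0.044 to 0.46 for TEKT2. In Infertile against Sub-fertile within the largest set, CFAP36 was at -0.013, CFAP58 at -0.22, CFAP97 at 0.00387, DNAH12 at -0.21, DNAH3 at -0.42, DNAH5 at -0.31, DNAH9 at -0.0043, DNAI1 at -0.16, FOXJ1 at -0.16, RSPH1 at -0.20, RSPH9 at -0.21, SNTN at -0.25, TEKT1 at -0.35 and TEKT4 at -0.0050. Without the set of 5, CFAP58 was at -0.27, DNAH12 at -0.20, DNAH3 at -0.12, DNAH5 at -0.21, DNAH9 at -0.091, SNTN at -0.13 and TEKT1 at -0.36. CFAP97 was at 0.072 with the set as covariate and 0.036 without the set of 2. Without 1 heifer, values ran from -0.13 to 0.038 for CFAP97, -0.11 to 0.23 for DNAH12, -0.18 to 0.27 for DNAH5 and -0.076 to 0.12 for IFT20. The cause was not tested.

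No paired analysis was run, because each library is a different heifer and the labels give no pairing between classes. The class of a heifer and its library set cannot be fully told apart, since the set of 5 held no High-fertile heifer. Counting error is small for most members, and the spread between 5 heifers sets the precision.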
